A study of Homo sapiens with 12 samples.

Results

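Distal regulatory sites at which SREBP2 and RORγ were found together in acetylated chromatin, and at which SREBP2 was still called after a RORγ antagonist, were examined in HCC70 cells, an established line of triple-negative breast cancer. A member was a region of the SREBP2 vehicle list on chromosomes 1 to 22 or X that shared at least 1 bp with a RORγ vehicle region, with an H3K27ac vehicle region and with an SREBP2 XY018 region, and that lay outside promoter windows, which began 1000 bp before a transcript start and ended 100 bp after it. The rule was met by 8484 of the 117441 SREBP2 vehicle regions (7.22%). Of the starting regions, 57535 overlapped RORγ, 23419 of these overlapped H3K27ac, 21954 of these were called again for SREBP2 with XY018, and 8484 of these were distal. The members were thus chosen by measured values, namely the peak calls of 4 libraries: SREBP2 vehicle, SREBP2 XY018, RORγ vehicle and H3K27ac vehicle. The RORγ and H3K27ac libraries made with XY018, the sequence of the regions and, beyond the promoter window, their position were not used by the rule.

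Chromatin immunoprecipitation followed by sequencing was carried out after 24 h with vehicle or with XY018, given as 5 µM in the labels and as a lower dose in the study's methods. Each of the 3 antibodies was used on 1 vehicle and 1 XY018 library, which gives 6 groups of 1 library of the same cell line, and the 6 input libraries were not analysed here. No difference between treatments therefore has a replicate check and no test was possible, so values are given with counting error only. Depth recovered from the peak values was between 3.65 and 6.16 tags per kb of mappable genome in the 6 libraries, and the fragment length was 205 bp in the SREBP2 XY018 library against 185 bp in the SREBP2 vehicle library.

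SREBP2 is a transcription factor that is held in the endoplasmic reticulum membrane while sterols are plentiful and is cut loose when they fall. Its released part enters the nucleus and binds sterol regulatory elements (SREs) and E-boxes, often beside NF-Y or SP1, and is best known for raising the genes of cholesterol synthesis and uptake. RORγ is a nuclear receptor that binds as a monomer to an AGGTCA element with an AT-rich 5′ extension (RORE), and XY018 is a small-molecule antagonist of it. H3K27ac, acetylation of lysine 27 of histone H3, is laid down by CBP and p300 at active promoters and enhancers. Outside promoters, a region with this mark and bound factors is commonly read as an active enhancer.

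The identity of the cells was checked on H3K27ac over promoters. With vehicle, 8 of 10 basal breast markers and 5 of 8 luminal markers had such a region. Fragments at the summit, the number of fragments stacked at the highest base of a region as recovered from its deposited fold and p-value, were taken from the strongest region at a gene's promoters and ran from 0 to 231 for the basal and from 0 to 296 for the luminal list. The basal genes EGFR, CDH3 and FOXC1 had 231, 177 and 142 fragments, and KRT14 and KRT6A had none. XBP1, FOXA1 and GATA3, which are used as luminal markers, had 296, 225 and 189 fragments, whereas PGR and TFF1 had none and ESR1 had 10. ERBB2 had 180. Defining hormone receptor genes were thus at or near 0, and some luminal factor genes were acetylated together with basal ones.

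Sequences of the SREBP2 vehicle summit and 100 bases to either side are shown for 8 members, because base composition and motifs were free of the rule. All are from the forward strand of hg19, and capitals mark the motif named. First come 2 of the 3 members with the highest SREBP2 fold, the deposited enrichment of the summit over its local background, with GC boxes (GGGCGG on either strand, the site of SP and KLF factors) in capitals. They lay in an exon of APBB1IP (chr10:26855764-26856504) and between genes nearest to PCMTD2 (chr20:62947634-62948365), and their windows held 5 and 2 GC boxes.
APBB1IP: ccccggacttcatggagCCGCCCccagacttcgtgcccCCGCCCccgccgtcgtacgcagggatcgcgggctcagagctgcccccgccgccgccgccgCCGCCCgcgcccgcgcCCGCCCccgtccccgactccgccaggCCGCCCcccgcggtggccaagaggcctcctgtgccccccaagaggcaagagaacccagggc
PCMTD2: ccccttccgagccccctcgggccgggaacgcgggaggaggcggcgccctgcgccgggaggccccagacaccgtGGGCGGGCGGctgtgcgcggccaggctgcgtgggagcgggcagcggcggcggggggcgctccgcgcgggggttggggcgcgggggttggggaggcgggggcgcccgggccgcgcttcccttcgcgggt

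Of the members eligible for display, the strongest 2 that held an RORE core, the element of RORγ itself, lay in introns at CMC2 (chr16:80965809-80966764) and MUC4 (chr3:195537389-195537712). The RORE core is in capitals and lies on the reverse strand in both.
CMC2: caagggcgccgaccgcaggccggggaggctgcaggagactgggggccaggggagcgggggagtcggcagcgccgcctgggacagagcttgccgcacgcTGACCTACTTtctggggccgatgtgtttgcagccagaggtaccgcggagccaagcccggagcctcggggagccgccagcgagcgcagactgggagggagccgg
MUC4: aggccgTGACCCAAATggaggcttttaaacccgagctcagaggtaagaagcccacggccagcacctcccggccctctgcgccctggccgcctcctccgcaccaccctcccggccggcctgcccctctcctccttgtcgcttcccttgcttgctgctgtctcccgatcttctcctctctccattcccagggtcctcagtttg

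The strongest 2 eligible members with an SRE (TCACNCCAC on either strand), the element of SREBP2, lay between genes upstream of DEGS2 (chr14:100631611-100632347) and in an exon at NTF4 (chr19:49564540-49565148). The SRE is in capitals.
DEGS2: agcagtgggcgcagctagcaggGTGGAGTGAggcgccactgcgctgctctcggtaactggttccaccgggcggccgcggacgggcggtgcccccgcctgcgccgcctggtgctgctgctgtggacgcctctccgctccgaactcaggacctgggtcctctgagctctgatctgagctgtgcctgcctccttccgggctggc
NTF4: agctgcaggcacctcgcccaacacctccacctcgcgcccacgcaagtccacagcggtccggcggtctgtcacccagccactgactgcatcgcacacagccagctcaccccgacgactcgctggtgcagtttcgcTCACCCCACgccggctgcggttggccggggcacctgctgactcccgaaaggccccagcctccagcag

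The strongest 2 eligible members with an AP-1 motif (TGANTCA), which is typical of enhancers of epithelial cells, lay between genes nearest to CITED4 (chr1:41349615-41350411) and ZNF778 (chr16:89313336-89314333). The AP-1 motif is in capitals.
CITED4: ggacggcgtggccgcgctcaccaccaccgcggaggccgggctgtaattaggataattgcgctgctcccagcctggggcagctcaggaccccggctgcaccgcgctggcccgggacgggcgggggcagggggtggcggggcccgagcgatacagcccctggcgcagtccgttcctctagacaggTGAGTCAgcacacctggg
ZNF778: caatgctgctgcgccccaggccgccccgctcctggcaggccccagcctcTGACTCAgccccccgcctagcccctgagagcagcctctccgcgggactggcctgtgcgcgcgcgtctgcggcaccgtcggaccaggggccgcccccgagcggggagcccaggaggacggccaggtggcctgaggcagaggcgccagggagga

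Members were more GC-rich at the SREBP2 summit than beside it. The median GC content of this window was 70.1% in members (quartiles 68.2% and 73.1%), 55.7% at positions 1000 bp to either side, 75.1% at promoters that met the same peak calls (13470 regions), and 64.2% over all SREBP2 vehicle regions. It was 69.2% in the 12645 distal regions with both factors and SREBP2 kept but no H3K27ac, close to the members. The window was CpG-rich, with at least 55% GC and an observed over expected CpG ratio of at least 0.6, in 46.7% of members, against 83.9% of those promoters, 26.8% of all SREBP2 vehicle regions and 13.5% of the 999 distal regions that met the other calls but lost SREBP2 with XY018. Windows with at least 20% repeated 8-mers, a sign of tandem repeats, made up 6.85% of members, 1.44% of the promoters and 12.7% of the distal regions without H3K27ac.

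The GC box was the most frequent of 11 motifs searched on both strands. It was present in 50.7% of member windows (exact 95% interval 49.6% to 51.7%), in 69.9% of promoter windows, in 30.1% of all SREBP2 vehicle windows and in 13.9% of the windows beside the members. The E-box CACGTG was found in 6.80% of members (6.27% to 7.36%), 5.05% of promoters, 4.72% of all SREBP2 vehicle windows and 4.27% of the windows beside the members. Together with the CTCF core, at 0.495% of members and 0.177% of the windows beside them, these were the motifs found more often at the summits of members than beside them.

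The elements of the immunoprecipitated factors themselves were rare at the summits. An RORE core, which ends in GGTCA and so can overlap an AGGTCA, was found in 6 of 8484 members (0.0707%, interval 0.0260% to 0.154%), in 0.142% of all SREBP2 vehicle windows and in 0.542% of the windows beside the members. AGGTCA alone, the single nuclear receptor site, was found in 7.69% of members, 17.1% of all SREBP2 vehicle windows and 14.9% of windows beside the members. An SRE was found in 85 members (1.0%, interval 0.801% to 1.24%), in 2.42% of all SREBP2 vehicle windows and in 2.06% of windows beside the members. The order was the same for each of these, with fewer windows at the summits of members than beside them.

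Motifs of other factors followed the same order. AP-1 motifs were found in 136 members (1.6%, interval 1.3% to 1.9%), 1.09% of promoters, 2.74% of all SREBP2 vehicle windows and 4.23% of windows beside the members. CCAAT, the NF-Y box, was found in 7.48% of members and 17.5% of windows beside them. GGAATG, the TEAD site, was found in 4.79% and 9.82%, TGTGGT, the RUNX site, in 8.52% and 13.6%, and the GRHL site AACCNGTT in 0.189% and 0.913%. Base composition differs between these windows by the values above, and its part in the motif shares was not tested. In the distal regions without H3K27ac the shares were near those of members for the SRE (1.07%), AP-1 (1.69%) and AGGTCA (9.07%), and lower for the GC box (41.2%). In the distal regions that lost SREBP2, AP-1 was found in 4.10% of summit windows and the GC box in 23.4%. A missing match says only that these letters are not in the window.

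**Figure D1:**
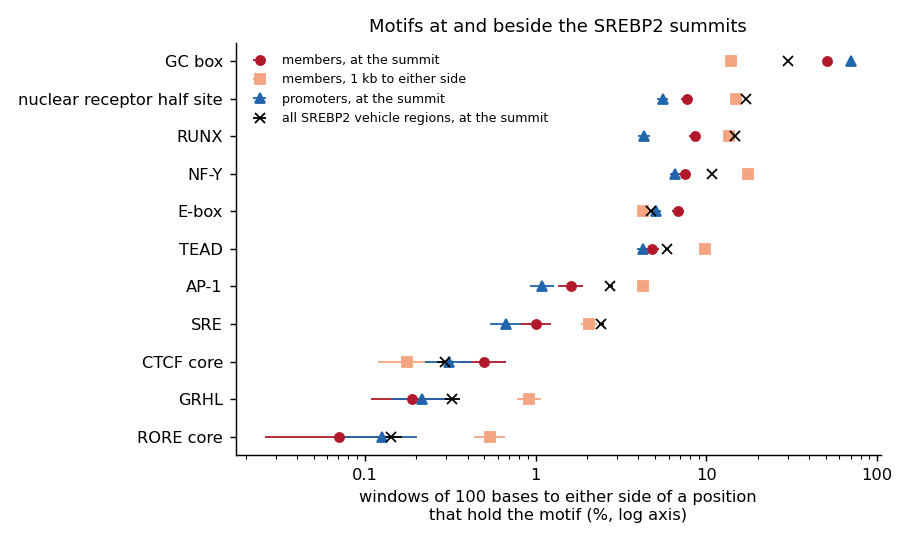
Percent of windows of 100 bases to either side of a position (x axis, log scale) that held each of 11 motifs (y axis) in members at the SREBP2 vehicle summit, in members 1000 bp to either side, in promoters that met the same peak calls and in all SREBP2 vehicle regions. Bars are exact 95% intervals. The GC box was found in 50.7% of members at the summit against 13.9% beside it, whereas the RORE core was found in 0.0707% against 0.542%.

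The members lay about as far from transcript starts as all SREBP2 vehicle regions, promoters included. The median distance from the summit to the nearest transcript start was 4259 bp (quartiles 1885 and 9950 bp), against 4232 bp over all SREBP2 vehicle regions. It was 7286 bp for the distal regions without H3K27ac and 3800 bp for those that lost SREBP2. Within 5 kb of a start lay 55.1% of members, between 5 and 50 kb 43.1% and beyond 50 kb 1.76%. Of all SREBP2 vehicle regions, 53.3% lay within 5 kb. Although all members lay outside the promoter window, 902 summits (10.6%) were less than 1 kb from a start. A start lay upstream of the summit, on the strand of its gene, for 64.3% of members and 54.9% of all SREBP2 vehicle regions. This share was 59.6% in the distal regions without H3K27ac and 60.3% in those that lost SREBP2. The promoter window removes 1000 bp before a start but 100 bp after it, so the rule itself favours summits downstream of a start. The summit fell in an exon of a protein-coding gene in 33.8% of members, in an intron in 39.7%, in a noncoding gene in 5.98% and between genes in 20.5%. Over all SREBP2 vehicle regions, exons held 18.7% and intergenic sequence 28.6%. Exons were thus the annotation with the widest gap between members and all SREBP2 vehicle regions, and their interval in members was 32.8% to 34.9%. Exons held a larger share of the promoters (47.0%), and smaller ones of the distal regions without H3K27ac (16.0%) and of those that lost SREBP2 (15.7%).

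**Figure D2:**
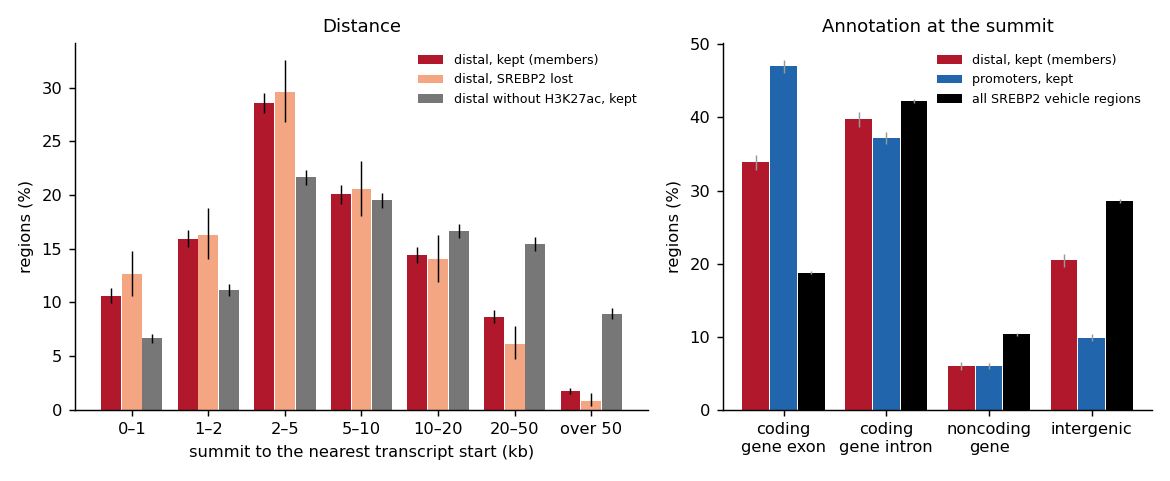
Left, percent of regions (y axis) by distance from the SREBP2 vehicle summit to the nearest transcript start in kb (x axis) for members, for distal regions that lost SREBP2 and for distal regions without H3K27ac. Right, percent of regions by annotation at the summit for members, promoters and all SREBP2 vehicle regions. Bars carry exact 95% intervals. Of the members, 28.6% lay 2 to 5 kb from a start and 33.8% lay in exons.

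Members were unevenly spread over the genome. Chromosome 19 held 974 members, 16.5 per Mb, chromosome 22 8.58 per Mb, chromosome 16 7.74 per Mb and chromosome 17 7.02 per Mb, whereas chromosome X held 0.670 per Mb and chromosome 18 1.10 per Mb. Members made up 10.9% of the SREBP2 vehicle regions of chromosome 19 and 4.10% of those of chromosome X, against 7.22% over all chromosomes, so that these shares varied less than the densities. Within 2 Mb of a chromosome end lay 22% of members, 24.1% of the distal regions without H3K27ac, 13.3% of the promoters and 13.3% of all SREBP2 vehicle regions. Joined at gaps of up to 12.5 kb, the members formed 5026 clusters. In these, 3670 members (43.3%) were alone and 2097 lay in 257 clusters of 5 or more. The largest cluster held 42 members over chr7:1027960-1170511, at C7orf50, CYP2W1, GPER1 and GPR146, with a median of 37 SREBP2, 20 RORγ and 22.5 H3K27ac fragments at the vehicle summits, and 26 of its members were called for H3K27ac with XY018. The next held 40 members at EGFL7 and NOTCH1 (chr9:139390376-139524037), of which 34 were called for H3K27ac with XY018. Over all members this share was 78.5%.

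The 3 immunoprecipitations had their summits at nearly the same position. The RORγ vehicle summit lay a median of 42 bp from the SREBP2 vehicle summit, and within 100 bp in 74.7% of members. The H3K27ac vehicle summit lay a median of 38 bp away, and within 100 bp in 75.4%. In the promoters, the H3K27ac summit was within 100 bp in 64.4%, and in the distal regions that lost SREBP2 it was in 50.9%. The summits of the XY018 libraries were as close, at medians of 36 bp for SREBP2, 38 bp for RORγ and 40 bp for H3K27ac.

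The H3K27ac signal at members was above that of other distal acetylated regions and below that of promoters. Members overlapped 8247 of the 68511 distal H3K27ac vehicle regions (12.0%), whose median was 20 fragments at the summit, with quartiles of 14 and 31. The 54460 distal H3K27ac regions without SREBP2 had a median of 13 fragments and quartiles of 11 and 17. Per member, the median was 22 H3K27ac fragments, against 58 at the promoters. A first group of 558 members (6.58%) lay in an H3K27ac region that itself reached into a promoter window, with a median of 65.5 fragments and a width of 1630 bp. The other 7926 lay in H3K27ac regions that were wholly distal, with a median of 21 fragments and a width of 528 bp. "Active" therefore stands for the overlap with an H3K27ac call, and most of the members carried fewer H3K27ac fragments than the promoters' median.

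SREBP2 at the members was lower with XY018, although each member was still called. This contrast chose the members, so it is given as a description. Fragments at the summit went from a median of 32 with vehicle (quartiles 23 and 43) to 22 with XY018 (quartiles 15 and 32). Pileup ratios, the summit fragments with XY018 over those with vehicle, each scaled by the genome-wide background of its library, had a median of 0.602 and quartiles of 0.497 and 0.716. Scaling by tags per kb in place of the background shifts every SREBP2 ratio by 0.15 on the log2 scale, because the fragment lengths differ, and moves this median to 0.667. With the background scaling, the ratio was below 1 in 96.8% of members. The pileup was lower by 1.5-fold or more in 5514 members (65.0%) and higher by 1.5-fold or more in 37 (0.436%). Tag scaling puts the median close to the 1.5-fold limit, and the shares here and below were not recounted with it. Over all SREBP2 regions called in both libraries, 61.5% were lower by that much and 0.969% higher, and the median ratio was 0.614, so that members were near the rest. Of all SREBP2 vehicle regions, 39.8% overlapped an XY018 region, whereas the rule fixes that share at all members. It was 89.5% in the 9483 distal regions with RORγ and H3K27ac. The SREBP2 vehicle list is longer than the high-confidence set counted in the paper, with a median of 10 fragments. A missing call is not a measured loss of binding. In cells pooled for immunoprecipitation, binding in fewer cells and less binding per cell cannot be told apart.

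RORγ remained called at nearly all members. With XY018, 8131 of 8484 members (95.8%, interval 95.4% to 96.3%) overlapped a RORγ region, against 36.4% of all RORγ vehicle regions and 76.4% of all SREBP2 vehicle regions with RORγ. The same share was 95.8% at the promoters, 88.2% in the distal regions without H3K27ac and 40.5% in the distal regions that lost SREBP2. These sets differ in strength, with a median RORγ vehicle fold of 10.4 in members and 3.79 in the distal regions that lost SREBP2. The RORγ vehicle list is itself longer than the high-confidence set counted in the paper, with a median of 7 fragments. A missing call is thus not a measured loss, and the paper reports little effect of XY018 on RORγ binding across the genome. Within 10 equal-sized classes of RORγ vehicle fold, members were called 28.0 percentage points more often than the distal regions that lost SREBP2 (interval 20.5 to 35.5, smallest class 6 regions), 1.15 points more often than the promoters (0.589 to 1.71) and 2.70 points more often than the distal regions without H3K27ac (2.18 to 3.22).

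The RORγ pileup was close to even between the treatments. Fragments at the summit had a median of 21 with vehicle (quartiles 12 and 36) and 21 with XY018 (quartiles 13 and 34, over members called there). The median ratio over the 8128 members called in both with whole fragments was 1.06 (quartiles 0.879 and 1.31), against 0.983 at the promoters and 1.03 over all SREBP2 vehicle regions with RORγ in both. It was lower by 1.5-fold or more in 6.26% of members and higher by that much in 14.4%. Over all RORγ regions called in both libraries these shares were 6.78% and 15.6%, so that members were near the background in both directions. In classes of equal summed fragments, the XY018 library gave 1.98 percentage points more of the RORγ fragments at members than at the promoters. Fewer fragments leave a wide scatter, and among the 4460 members with at least 40 fragments over both libraries the median ratio was 1.03.

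H3K27ac was called at fewer of the members with XY018 than RORγ was. With XY018, 6659 members (78.5%, interval 77.6% to 79.4%) overlapped an H3K27ac region, against 69.3% of all H3K27ac vehicle regions and 63.1% of the distal ones. Of all SREBP2 vehicle regions with H3K27ac, promoters included, 82.7% did, a higher share than of the members. The share was 94.1% at the promoters and 56.2% in the distal regions that lost SREBP2. In classes of equal H3K27ac vehicle fold, the share of members minus that of promoters was -7.14 percentage points (interval -8.28 to -6.00), and members were called 10.4 points more often than the distal regions that lost SREBP2 (7.28 to 13.6). Members in an H3K27ac region that reached a promoter window were called in 95.3%, and those in wholly distal H3K27ac regions in 77.3% (76.4% to 78.2%).

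The H3K27ac pileup at members did not share the higher values of promoters. Fragments at the summit had a median of 22 with vehicle over all members (quartiles 15 and 35). With XY018 it was 23 (15 and 39) over members called there, so these medians cover different members. With vehicle, members later called for RORγ and H3K27ac had a median of 26, and those called for RORγ alone 13. The median ratio over the 6659 members called in both libraries, which leaves out those that lost the call, was 1.02 (quartiles 0.803 and 1.27). At the promoters the medians were 58 and 74 fragments and the ratio was 1.27 (1.05 and 1.47). Of the members called in both, 12.5% were lower by 1.5-fold or more and 10.9% higher by that much. Over all H3K27ac regions called in both libraries, 5.15% were lower and 19.1% higher. The ratio was 1.0 in wholly distal H3K27ac regions and 1.19 where the H3K27ac region reached a promoter window. Among the 4280 members with at least 40 fragments the median was 1.07. In classes of equal summed fragments, the XY018 library gave 2.80 percentage points less of the H3K27ac fragments at members than at promoters. The paper reports lower H3K27ac with XY018, along with loss of SREBP2, in profiles around peak centres and at cholesterol synthesis genes. Its regions and measure differ from those of the ratios here, which did not show a fall in the median.

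**Figure D3:**
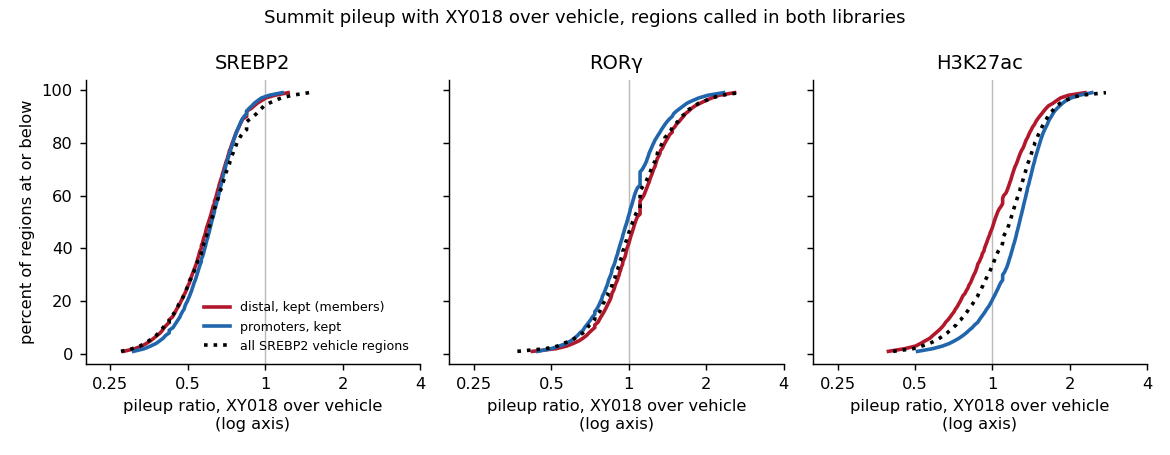
Percent of regions (y axis) with a pileup ratio, XY018 over vehicle, at or below the value on the x axis (log scale), for SREBP2, RORγ and H3K27ac at members, promoters and all SREBP2 vehicle regions called in both libraries. Members and promoters nearly coincide for SREBP2 (medians 0.602 and 0.619), while for H3K27ac the curve of the promoters (median 1.27) lies to the right of that of the members (median 1.02).

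Taking both XY018 calls together, 6419 members (75.7%) were called for RORγ and for H3K27ac, 1712 (20.2%) for RORγ alone, 240 (2.83%) for H3K27ac alone and 113 (1.33%) for neither. Members called for both had a median of 34 SREBP2, 25 RORγ and 26 H3K27ac fragments with vehicle. Those called for RORγ alone had 25, 14 and 13, and those called for neither 17, 7 and 13. Members called for H3K27ac alone had 16.5 SREBP2, 8 RORγ and 27 H3K27ac fragments. Members without a call for an antibody with XY018 thus had fewer fragments of that antibody with vehicle.

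Stronger SREBP2 members kept their calls more often. When members were divided into 5 classes of equal size by SREBP2 vehicle fold, H3K27ac was called with XY018 in 65.8%, 70.4%, 79.4%, 85.2% and 91.7% from the weakest to the strongest class. RORγ was called in 85.8%, 95.3%, 98.4%, 99.7% and 100% in the same order. Over the same classes the median H3K27ac fragments with vehicle went from 18 to 28 and those of RORγ from 10 to 46. The median SREBP2 ratios of these classes were 0.626, 0.574, 0.586, 0.597 and 0.620, and they are given as a description. The classes are cut on the SREBP2 vehicle fold, and the rule asks for an SREBP2 call with XY018. A weak region with a larger fall can lose that call and is then not a member. GC content went from 68.7% to 72.6% and the CpG ratio from 0.492 to 0.669.

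**Figure D4:**
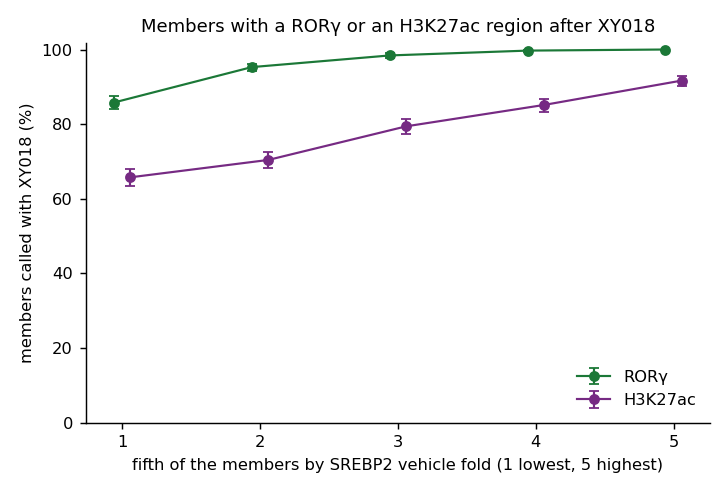
Percent of members (y axis) with a RORγ or an H3K27ac region in the XY018 library, in 5 classes of equal size by SREBP2 vehicle fold (x axis, weakest to strongest). Bars are exact 95% intervals. H3K27ac went from 65.8% to 91.7% and RORγ from 85.8% to 100%.

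Ratios of the 3 antibodies were only loosely related across members. Among members with at least 40 fragments for both antibodies, Spearman's rho was -0.06 for SREBP2 and RORγ (4251 members), 0.10 for SREBP2 and H3K27ac (3578 members) and -0.17 for RORγ and H3K27ac (2717 members). These are correlations across regions of the same libraries, which are not independent. Members with at least 40 SREBP2 fragments over both libraries were split by SREBP2 ratio into groups of 2066, 2066 and 2067, with median SREBP2 ratios of 0.470, 0.612 and 0.764. These stronger members had median H3K27ac ratios of 0.954, 1.05 and 1.06 and were called for H3K27ac with XY018 in 79.3%, 87.1% and 86.6%.

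Motifs went with small differences in these values. Members with a GC box had a median H3K27ac ratio of 1.10 and were called for H3K27ac with XY018 in 82.9% (81.7% to 84.0%), and those without had a ratio of 0.959 and were called in 74.0% (72.6% to 75.3%). The median GC content was 71.6% with the box and 69.2% without. For the 136 members with an AP-1 motif, 78.7% (70.8% to 85.2%) were called for H3K27ac, against 78.5% of the others. Of the 85 with an SRE, 72.9% were called (62.2% to 82.0%), and their median SREBP2 ratio was 0.579.

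The 8 members with the highest SREBP2 fold were strong for both factors, with 73 to 162 RORγ fragments with vehicle, while their H3K27ac fragments, from 10 to 39, lay on both sides of the members' median of 22. At APBB1IP, which encodes an adaptor between Rap1 and the actin cytoskeleton, SREBP2 had 98 fragments with vehicle (exact Poisson 95% interval 79.6 to 119) and 62 with XY018 (47.5 to 79.5), RORγ had 96 and 89, and H3K27ac had 14 and 12. At CCDC171 the same values were 116 and 103, 137 and 111, and 22 and 14. At PCMTD2 they were 77 and 67, 105 and 81, and 16 and 17. With vehicle, RORγ had more fragments than SREBP2 at CCDC171 and PCMTD2 and about as many at APBB1IP, although the RORγ library was the shallower. The member nearest to RRAGC, a Rag GTPase gene of amino acid sensing 371485 bp away, had 88 and 68 SREBP2 fragments and 73 and 62 RORγ fragments. Its H3K27ac region of 19 fragments was not called with XY018. The member nearest to STMND1 had 73 and 54, 88 and 77, and 10 H3K27ac fragments with vehicle only. PRELID3A, SEPTIN7, a septin of the cytoskeleton, and ANKRD33B had 89, 83 and 142 SREBP2 fragments with vehicle and 56, 75 and 114 with XY018. Their H3K27ac fragments were 39 and 34 at PRELID3A, 22 and 27 at SEPTIN7 and 26 and 29 at ANKRD33B. In all 8 the fragments of SREBP2 and of RORγ were fewer with XY018, and the intervals of the treatments did not overlap only for SREBP2 at APBB1IP. The 8 were picked for high SREBP2 fold with vehicle, so their lower SREBP2 values are no separate result. The SREBP2 ratio was below 1 in 96.8% of all members. Scaled by the background of each library, the RORγ ratios of the 8 lay between 0.853 at PCMTD2 and 1.03 at APBB1IP.

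**Figure D5:**
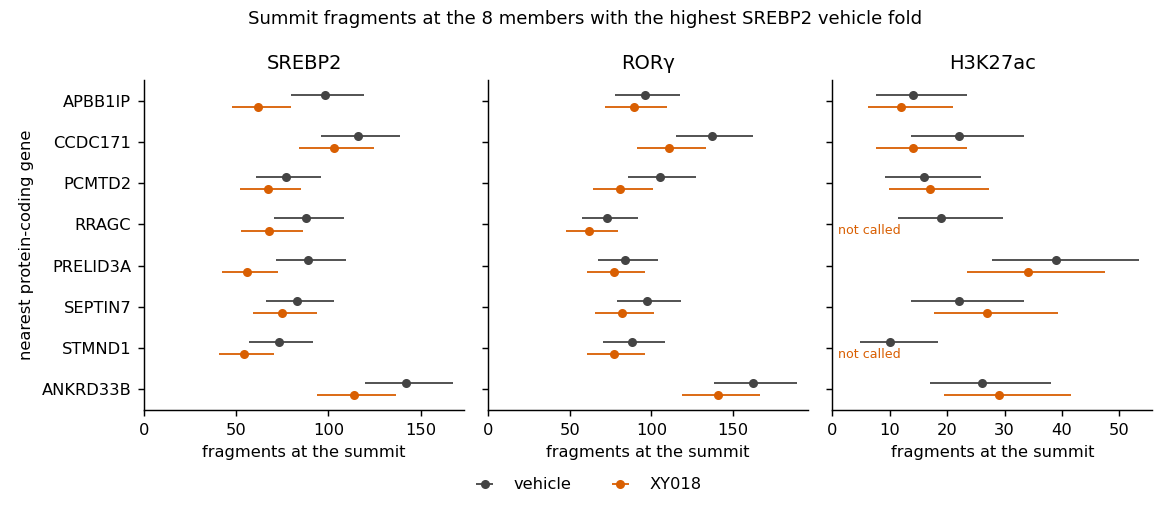
Fragments at the summit (x axis) in the vehicle and XY018 libraries for SREBP2, RORγ and H3K27ac at the 8 members with the highest SREBP2 vehicle fold, named by the nearest protein-coding gene (y axis). Bars are exact Poisson 95% intervals. H3K27ac stayed under 40 fragments in each, and was not called with XY018 at RRAGC and STMND1.

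Members were assigned to the protein-coding gene with the nearest transcript start, which named 4202 of 20090 genes (20.9%). A single member was found at 2599 of these and 5 or more at 302, and 97.0% of members lay within 100 kb of the start of their gene. The most members were found at MAD1L1, the spindle checkpoint gene, with 58, followed by GSE1 with 49, CASZ1, a zinc finger transcription factor, with 42 and ZC3H3 with 34. At MAD1L1, SREBP2 fragments were 16 at the lowest, 42 at the median and 72 at the highest member with vehicle, and 12, 30.5 and 53 with XY018. The ranges of the treatments overlapped at each of these 4 genes. RORγ was called with XY018 at 57 of the 58 members of MAD1L1, and 49 of 49 at GSE1, and H3K27ac at 35 and 44. Over all members RORγ was called in 95.8% and H3K27ac in 78.5%. The median H3K27ac ratios of the 4 genes lay between 0.831 at GSE1 and 0.945 at CASZ1.

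Of the cholesterol synthesis genes, 4 of 20 were nearest to a member, close to the 20.9% of all protein-coding genes. Each had 1 member. HSD17B7, a ketosteroid reductase of the pathway, had the strongest in fragments, with SREBP2 at 57 and 45, RORγ at 42 and 42, and H3K27ac at 62 and 73 fragments for vehicle and XY018, at chr1:162792058-162792656, between genes. The member in an exon of DHCR7, which makes cholesterol from its last precursor, had SREBP2 at 30 and 23, RORγ at 17 and 17, and H3K27ac at 28 and 14. LSS, the lanosterol synthase, had 26 and 14 SREBP2 fragments and SC5D, the lathosterol oxidase, 21 and 9. At both of these H3K27ac was called with vehicle only, at 11 and 7 fragments. H3K27ac was thus called with XY018 at 2 of the 4, against 78.5% of all members.

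Genes of sterol sensing, uptake and transport were nearest to a member in 11 of 19 (57.9%), with 19 members in all. Over all protein-coding genes this share was 20.9%, the value to set beside the lists below as well. The sterol genes were nearest to 115 distal SREBP2 vehicle regions and the cholesterol synthesis genes to 42, and the shares were not tested against that. RORγ was called with XY018 at all 19 members and H3K27ac at 14, against 95.8% and 78.5% of all members. SREBF2, the gene of SREBP2 itself, had a member in an exon at chr22:42301327-42301887 with SREBP2 at 52 and 39, RORγ at 42 and 35 and H3K27ac at 28 and 25 fragments. Its SREBP2 ratio of 0.635 was close to the median of all members. INSIG1, which retains SREBPs in the membrane, had 3 members, the strongest with 63 and 45, 69 and 60, and 16 and 10 fragments, 73725 bp from the start. ABCG1, a sterol exporter, had 3, the strongest with 35 and 23, 17 and 26, and 22 H3K27ac fragments with vehicle only. Of the fatty acid synthesis genes, 4 of 10 had a member. At FASN, the fatty acid synthase, the strongest of 3 lay in an exon and had 37 and 25, 41 and 40, and 31 and 25. ELOVL5, an elongase, had 51 and 41, 52 and 49, and 27 and 33, ACSS2, an acetyl-CoA synthetase, had 32 and 25, 30 and 20, and 37 and 36, and ACLY, the citrate lyase, had 12 and 11, 8 and 6, and 36 and 19. H3K27ac was called with XY018 at all 7 members of this list, against 78.5% of all members.

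Among clock and ROR genes, 5 of 16 had 1 member each. BMAL1, a clock activator whose promoter is a known ROR target, had a member 712 bp into the gene. Its fragments were 15 and 15 for SREBP2, a scaled ratio of 0.846, 16 and 14 for RORγ and 49 and 52 for H3K27ac. DBP had 31 and 19 SREBP2 and 25 and 20 RORγ fragments. PER2, a clock repressor, had 14 and 19 SREBP2 fragments, and at PER2 and BHLHE40 RORγ was called with vehicle only. RORγ was called with XY018 at 2 of the 5 members of this list, the lowest share of the 12 lists, against 95.8% of all members. These 5 were weak, with a median of 10 RORγ fragments with vehicle against 21 in all members. BHLHE40 and PER2 had 5 and 10.

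Of basal breast genes, 8 of 22 had a member, with 22 in all, and of luminal genes 5 of 12, with 16 in all. At EGFR, the strongest of 4 lay 14379 bp upstream with SREBP2 at 47 and 45, RORγ at 49 and 61 and H3K27ac at 59 and 42 fragments. FOXC1, a basal transcription factor, had 6 members, the strongest with 45 and 39 and 34 and 39 and with H3K27ac called with vehicle only, at 14. ITGB4, a hemidesmosome integrin, had 39 and 31, 20 and 22, and 23 and 12. The strongest member assigned to ID4, 566555 bp from its start, had SREBP2 at 30 and 8 fragments, the lowest SREBP2 ratio of the list (0.226). GATA3, a luminal transcription factor, had 6 members, the strongest at chr10:8050951-8051413 with 76 and 66, 95 and 75, and 37 and 34 fragments. At FOXA1, its partner, the strongest of 5 had 53 and 43, 54 and 51, and 74 and 81. SPDEF and KRT18 had 40 and 22, and 37 and 25 SREBP2 fragments. With vehicle, both factors were between 34 and 95 fragments at FOXC1, FOXA1 and GATA3.

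Genes of AP-1 factors were nearest to a member in 9 of 12 and Hippo pathway genes in 6 of 11 (54.5%), against 20.9% of all protein-coding genes. JUNB had a member 1668 bp upstream with SREBP2 at 41 and 38, RORγ at 21 and 24 and H3K27ac at 205 and 274 fragments. ATF3 had 69 and 48, 61 and 70, and 52 and 56, FOSL2 42 and 26, 13 and 17, and 40 and 20, and JUND 23 and 15, 17 and 8, and 55 and 66. At CCN1, a YAP target, the strongest had 57 and 61 SREBP2 and 80 and 83 RORγ fragments, with a scaled SREBP2 ratio of 0.906. AMOTL2 and LATS2, which hold YAP back, had 58 and 35 and 56 and 50 SREBP2 fragments, and TEAD4 had 25 and 12. Genes differ in length and in the number of SREBP2 regions around them, and the share of genes with a member was not tested against that.

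Nuclear receptors and their cofactors had 8 of 17 genes with a member, and the most members of the 12 lists, 80, of which 24 were at RXRA, 16 at PPARA and 4 at RARA. The strongest at RXRA, the common dimer partner of receptors, had SREBP2 at 37 and 16, RORγ at 14 and 17 and H3K27ac at 37 and 27 fragments. At PPARA it had 59 and 43, 35 and 44, and 70 and 55, and at RARA 39 and 16, 21 and 20, and 36 and 29. In these 80 members RORγ was called with XY018 at 70 and H3K27ac at 60, and the median H3K27ac ratio was 0.798, the lowest of the 12 lists. Over all members RORγ was called in 95.8% and H3K27ac in 78.5%, and the median H3K27ac ratio was 1.02.

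MYC and cell cycle genes had a member in 6 of 13, with 16 members. All 16 were called for RORγ and for H3K27ac with XY018, against 75.7% of all members. CCND1, cyclin D1, had 7 members, and the strongest, 850 bp into the gene, had SREBP2 at 44 and 28, RORγ at 15 and 20 and H3K27ac at 164 and 205 fragments. CDKN1A, the p21 gene, had 51 and 35, 28 and 35, and 24 and 38, CCNE1 had 58 and 36, 28 and 21, and 54 and 86, and RB1 had 45 and 34, 35 and 33, and 24 and 20. Survival genes had a member in 2 of 10, NFKBIA and BBC3, and genes of epithelial state in 4 of 14. At CDH1, which encodes E-cadherin, the member 774 bp into the gene had SREBP2 at 38 and 20, RORγ at 40 and 34 and H3K27ac at 238 and 302 fragments. SNAI1 had 46 and 45 SREBP2 fragments, SNAI2 67 and 53, and ZEB2 37 and 19, the last with its nearest coding start 1360067 bp away. Among the members named from the lists, only those at CDH1, CCND1 and JUNB had over 100 H3K27ac fragments with vehicle, and all 3 lay within 2 kb of a coding start.

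The most extreme RORγ and H3K27ac ratios did not come from a change at 1 position. Among members with at least 40 fragments, the 5 lowest RORγ ratios ran from 0.121 at UBN1 to 0.189 at MTA1 and the 5 highest from 3.93 at AKT1 to 8.68 at EXOC3. The H3K27ac ratios ran from 0.0637 at WNT7B to 16.1 at NOTCH1. At NOTCH1 the H3K27ac fragments went from 13 to 191, and at WNT7B from 172 to 10. In each of these 20 members the vehicle and XY018 summits lay between 482 and 2748 bp apart, so the ratio compares different positions of broad or neighbouring regions. In members called in both libraries, the summits were within 100 bp of each other in 76.3% for RORγ and 77.9% for H3K27ac.

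With summits within 100 bp, a restriction chosen after these values were seen, the RORγ ratio of members with at least 40 fragments lay between 0.311 and 2.58 and the H3K27ac ratio between 0.296 and 3.52. The lowest RORγ ratio was at WBP2NL, with 32 fragments with vehicle (interval 21.9 to 45.2) and 9 with XY018 (4.12 to 17.1), and the highest at POLR2B, with 12 (6.20 to 21.0) and 28 (18.6 to 40.5). For H3K27ac the lowest was at RYK, with 37 (26.1 to 51.0) and 10 (4.80 to 18.4) fragments, and the highest at MUC4, with 14 (7.65 to 23.5) and 45 (32.8 to 60.2). At MUC4, SREBP2 had 65 and 50 fragments and RORγ 59 and 60 fragments. The intervals of the treatments did not overlap at WBP2NL, RYK and MUC4 and overlapped at POLR2B, and these are the ends of 3642 and 3485 values.

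Members next to a limit of the rule were weaker than most. The member that touched a promoter window without overlapping it, in an intron of ANKRD11, had SREBP2 at 20 and 12 fragments, and a region that overlapped one by 1 bp, at CPT1A, had 18 and 17. Within 10 bp of the window lay 48 members and 46 promoter regions. The member with the least overlap with RORγ, 1 bp at PFKL, had 7 and 19 SREBP2 fragments, and the nearest miss, at KLHL30, had 11 and 12. The member with 4 bp in common with its H3K27ac region, at OSGIN1, had 25 and 15, and the nearest miss, at PC, had 11 and 14. For SREBP2 with XY018, the overlap was 1 bp at ERICH5, with 8 and 7 fragments, and the nearest miss was at CORO1B, 2 bp away, with 7 fragments with vehicle.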

How the data were processed

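ChIP-seq for SREBP2, RORγ and H3K27ac in HCC70 cells was analysed from 6 peak lists, 1 per library. Reads had been aligned to hg19 (Bowtie2 per the labels, BWA in the study's methods), duplicates were removed, and peaks were called with MACS 2.1.0. The fold enrichment in each list is the authors' ratio of summit pileup plus 1 to local background plus 1, and the deposited −log10 p-values and −log10 q-values are those of the peak caller. The H3K27ac lists hold part of longer call sets, chosen by a rule not given in the sources used here. Fold and −log10 p were inverted under the Poisson model to whole summit fragments and to the local background. This gave whole numbers for 98.7% to 100% of regions, with a tolerance of 5% of the step between neighbouring numbers, and was tested on simulated data. Ratios were scaled by the most common background of each library. Where several regions overlapped a member, the one with the highest fold was used.

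GENCODE 44 lifted to GRCh37 gave transcript starts and the reference gave sequence. Shares carry exact (Clopper-Pearson) and fragments exact Poisson 95% intervals, which cover counting error only. Named were the 8 strongest members, the 5 genes with most members, the 5 lowest and highest ratios with at least 40 fragments, up to 4 genes of each of 12 lists with the strongest member of each, and members at the limits of the rule; some items that these rules pick are not reported here. The members and lists were chosen with earlier results of these data known. Python 3.11.15, numpy 2.4.6, pandas 2.3.3 and scipy 1.17.1 were used.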

Additional observations from a re-analysis of the deposited data

How the results depend on the processing

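Of 78 values under an alternative, 55 stayed within the 95% interval of the reported value (or, for the number of members, within 1.5-fold) and 23 moved beyond it. No ratio crossed 1. For shares this is the exact interval. For medians it comes from the ranks of the regions, taken as independent, and reflects their spread and not the counting error of fragments. A promoter window of 5 kb to either side left 3626 members, with a median distance to a start of 11416 bp and 76.2% called for H3K27ac with XY018; protein-coding starts alone gave 5911 bp. At q of at most 0.01 in every list, H3K27ac was called in 79.7% and the SREBP2 ratio was 0.608. At q of at most 1e-05, RORγ was called in 95.4% and H3K27ac in 82.7%, the ratios were 1.04 for RORγ, 1.05 for H3K27ac and 0.626 for SREBP2, and GC was 71.1%. With summits within 100 bp counted as shared, RORγ was called in 88.1% and H3K27ac in 79.5%, and the RORγ ratio was 1.08. With the treatments swapped in the rule, the ratios were 1.05 for RORγ and 0.596 for SREBP2. With at least 40 fragments they were 1.03 for RORγ, 1.07 for H3K27ac and 0.612 for SREBP2. Scaling by tags moved the SREBP2 ratio to 0.667. In windows of 50 bases to either side GC was 72.3% and the AP-1 share 0.625%. Apart from those that follow from fewer regions or a shorter window, the cause was not tested. No paired analysis was possible because each group had 1 library. Leaving out members with repeated 8-mers, or pairs with distant summits, was added after the data were seen and moved no value beyond its interval. Depth limits single members: 22 H3K27ac fragments, the median, have a Poisson 95% interval from 13.8 to 33.3.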
